A study of Homo sapiens with 8 samples.

Results

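The quantity described here is the difference of responses, that is the log2 change from DMSO to Nutlin-3a in cells with FAM193A knocked out (KO) minus the same change in unmodified cells (WT). It was computed for every gene with at least 10 reads in at least 2 libraries, which held for 15969 of the 25369 genes in the count table. All cells were CHP212, a human neuroblastoma line, and all groups were exposed for 12 h. The 4 groups were WT with 0.2% DMSO, WT with 10 uM Nutlin-3a, KO with 0.2% DMSO and KO with 10 uM Nutlin-3a, with 2 replicates in each that the series describes as independent. The labels name a single KO population, so the loss of FAM193A and any other property of that population cannot be told apart.

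Nutlin-3a fills the pocket of MDM2 that binds p53. MDM2 is the ubiquitin ligase that keeps p53 scarce, so its blockade lets p53 accumulate and switch on target genes for cell cycle arrest, apoptosis, DNA repair and its own feedback control. The p53 target CDKN1A (p21) inhibits cyclin-dependent kinases. This leaves RB-family proteins active, and they silence genes of DNA replication and mitosis through E2F sites and through the element called CHR. In an arrest of this kind, target genes rise within hours and proliferation genes fall later. FAM193A encodes a protein whose biochemical role is poorly defined.

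The 8 libraries held 28390405 to 38010075 reads assigned to genes. FAM193A itself was still read in every library. Levels are given in CPM (read counts relative to library size, scaled with TMM factors). Under DMSO it was at 44.2 and 40.0 CPM in WT and 34.8 and 32.1 CPM in KO. Under Nutlin-3a it was at 50.4 and 44.6 CPM in WT and 41.9 and 38.2 CPM in KO. The level of KO minus WT was -0.33 under DMSO and -0.25 under Nutlin-3a on the log2 scale. The labels do not state where the gene was edited, and this level therefore does not check the knockout. Its difference of responses was 0.09 (SE 0.11, adjusted p = 0.597). The adrenergic marker HAND2 was high in all groups (means of 585 to 846 CPM), while TH and DBH were split by genotype. The summed level of 37 markers of other lineages was 968 to 1020 CPM in WT and 325 to 455 CPM in KO libraries, most of it KRT8, KRT18 and LUM. The lymphoid markers CD3D and CD3E, the globin gene HBG1 and the melanocyte gene TYR were at 0 reads. 3 libraries held genes with at least 50 reads whose level was at least 10 times that of the other replicate. These were WT DMSO replicate 2 with 6 such genes, WT Nutlin-3a replicate 1 with 17 and KO Nutlin-3a replicate 2 with 5, and the other 5 libraries had 0. Counts are therefore also given without these 3 libraries, a fit that leaves 3 groups with 1 library and takes its spread from the KO DMSO pair (1 residual degree of freedom). That pair varied least beyond counting noise, with a chi-square per gene of 2.38, against 2.72 to 9.22 in the other groups. The counts of this fit can therefore be too high.

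Most genes whose response differed between the genotypes moved less in KO than in WT cells. The difference of responses passed the test for 4357 of 15969 genes (27.3%), using edgeR's quasi-likelihood F test with Benjamini-Hochberg adjustment over all tested genes and a threshold of 0.05. It was more positive in KO for 2227 genes (13.9% of those tested) and more negative for 2130 (13.3%). These shares are the background for the directions counted in each list below. Among the 4357 genes, the KO response was smaller in size for 3974 (91.2%) and larger for 383 (8.79%). A difference of at least 2-fold was called for 586 genes (3.67%), of which 251 (1.57%) were more positive and 335 (2.1%) more negative. Tested against a minimum difference of 1.5-fold, 393 genes (2.46%) passed. For 8067 genes (50.5%) the replicate differences of KO and WT did not overlap, and all 4357 called genes were among them. Without the 3 libraries named above, 5093 genes were called. In bulk RNA a smaller response of every cell and a smaller share of responding cells cannot be told apart.

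Each called gene was sorted by its single responses in the same fit, where the WT response was called for 9315 genes (58.3%) and the KO response for 6141 (38.5%). A response counted as weaker when both were called in the same direction and KO moved less, and as lost when WT was called and KO was not. It was stronger when both were called in the same direction and KO moved more, newly gained when KO alone was called, and opposite when both were called with opposite signs. Weaker responses made up 2179 genes (13.6% of those tested), with 925 rises (5.79% of those tested) and 1254 falls (7.85%). Lost responses made up 1697 genes (10.6%), with 941 rises (5.89%) and 756 falls (4.73%). Stronger responses were found for 59 genes (0.369%), 40 of them rises (0.25%) and 19 falls (0.119%). A further 236 genes (1.48%) gained a response, 112 as rises (0.701%) and 124 as falls (0.777%). Opposite directions were found for 128 genes (0.802%), of which 81 (0.507%) rose in WT and 47 (0.294%) fell there. The remaining 58 genes (0.363%) had a called difference with neither single response called. The rarer classes moved most with the libraries used. Stronger responses numbered 26 without WT DMSO replicate 1, 30 without WT DMSO replicate 2, 36 without KO DMSO replicate 1, 30 without KO DMSO replicate 2 and 35 without KO Nutlin-3a replicate 1. Newly gained responses numbered 368 without WT Nutlin-3a replicate 1, 127 and 114 without KO DMSO replicates 1 and 2, and 138 without KO Nutlin-3a replicate 1. Opposite responses numbered 82 and 85 without WT DMSO replicates 1 and 2, 266 without WT Nutlin-3a replicate 1, 64 and 67 without KO DMSO replicates 1 and 2, and 73 without KO Nutlin-3a replicate 1. Without the 3 libraries together, there were 96 stronger, 413 newly gained and 293 opposite responses. Weaker responses numbered 1440 without KO DMSO replicate 2 and 1452 without KO DMSO replicate 1.

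**Figure D1:**
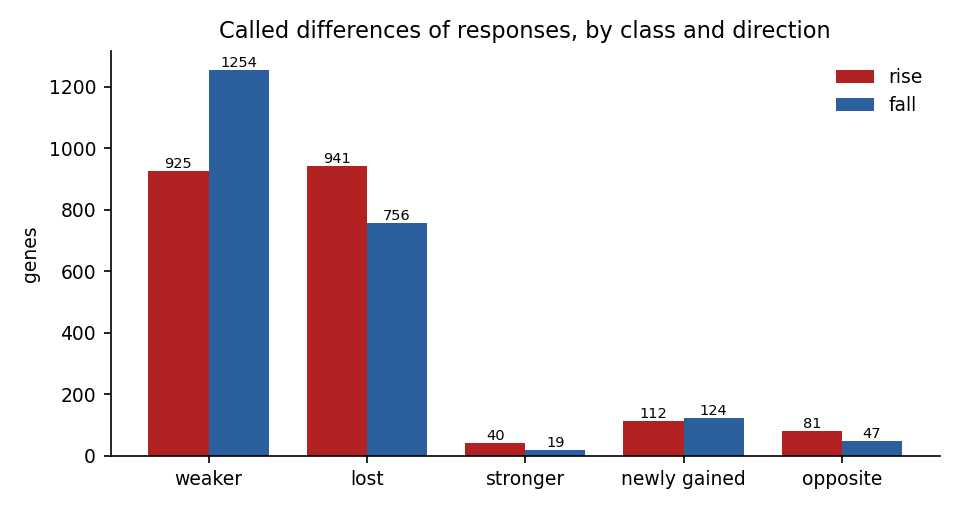
Number of genes (vertical axis) with a called difference of responses in each class, split by direction of the WT response, or of the KO response for newly gained genes. Weaker responses (925 rises, 1254 falls) and lost responses (941 rises, 756 falls) stand far above stronger (40 and 19), newly gained (112 and 124) and opposite responses (81 and 47); the 58 genes with neither response called are not drawn.

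The weaker class kept a like share of the WT response on the log2 scale in both directions. The class admits only genes with a called difference and a smaller KO response. Its shares therefore describe the class and not all responding genes. For weaker rises the median response was 1.04 in WT and 0.46 in KO (46.5% kept, quartiles 36.6% and 57.5%). For weaker falls the medians were -0.91 and -0.40 (46.6% kept, quartiles 38.6% and 56.0%). Lost responses were small in WT to begin with, with medians of 0.45 for rises and -0.47 for falls, and 1443 of 1697 (85%) were under 2-fold there. In KO their medians were 0.02 and -0.05. A missed threshold does not show that a response was absent. Gained rises had medians of -0.07 in WT and 0.36 in KO, and gained falls of 0.05 and -0.30.

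Across genes, KO responses followed WT responses at a smaller size. Across 12806 genes whose log2 CPM averaged 1 or more, the responses, which share no library, had a Pearson correlation of 0.869 and a Spearman correlation of 0.777. These describe genes, which are not independent replicates. The least squares slope was 0.579 with KO fitted on WT, and 0.766 when the fit was made the other way and inverted. The median size of a response was 0.305 in WT and 0.173 in KO. Genes grouped by their WT response showed the damping at both ends. The 71 genes that fell 4- to 8-fold in WT had a median of -2.25 there and -1.16 in KO, and the difference was called for 70 of them (98.6%). For the 136 genes that rose 4- to 8-fold the medians were 2.41 and 1.49, with 97 differences called (71.3%). The 115 genes that rose over 8-fold had medians of 4.55 and 3.31, with 68 called (59.1%). The grouping used the WT values, so these medians are a description.

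**Figure D2:**
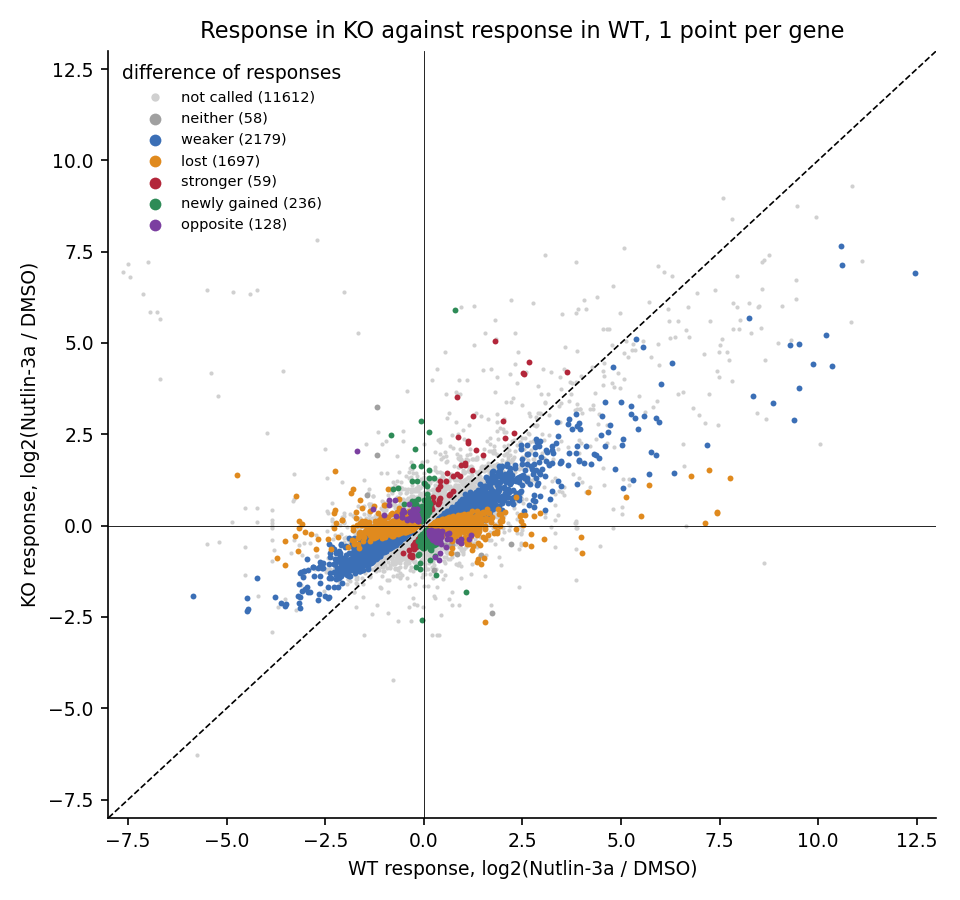
Each point is a gene, with the log2 response to Nutlin-3a in WT cells on the horizontal axis and in KO cells on the vertical axis; colours give the class and the dashed line marks equal responses. Weaker responses (2179) lie between the dashed line and the horizontal axis at both ends, lost responses (1697) lie along the horizontal axis, and points far out on either axis include genes with a group at or near 0 reads, whose fitted values are no bound.

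The sign of a difference depends on the scale when the genotypes already differ under DMSO. The change in CPM units went the other way from the log2 difference for 152 of the 4357 called genes (3.49%), for 108 of the 2179 weaker responses (4.96%) and for 27 of the 59 stronger ones (45.8%). For this reason the levels of the main genes are given for every group.

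MDM2, the p53 target that closes the feedback loop, rose less in KO. It was at 113 and 109 CPM in the WT DMSO libraries and at 2622 and 2777 CPM with Nutlin-3a. In KO cells the DMSO levels were 102 and 103 CPM and the Nutlin-3a levels 1076 and 1051 CPM. The groups did not overlap under either treatment, but the DMSO levels were close and the treated levels far apart. MDM2 rose 24.4-fold in WT and 10.4-fold in KO, a difference of -1.23 on the log2 scale (SE 0.070, adjusted p = 9.31e-10). MDM4, the partner of MDM2 that masks the p53 activation domain, rose by 0.49 in WT and 0.26 in KO, a difference of -0.23 (adjusted p = 0.0135). This call did not hold without WT DMSO replicate 1, WT DMSO replicate 2, KO DMSO replicate 1, KO DMSO replicate 2 or KO Nutlin-3a replicate 2, with adjusted p between 0.0502 and 0.0871. Limma on log2 RPKM did not call MDM4 in any setting either (adjusted p = 0.0541 to 0.0784). The phosphatase PPM1D, which removes activating phosphates from p53, rose 3.81-fold in WT and 2.98-fold in KO (difference -0.35, edgeR adjusted p = 0.000444). Its mean treated levels were alike, 265.5 CPM in WT and 261.6 CPM in KO, while its DMSO level was higher in KO (87.7 against 69.6 CPM). TP53INP1, a cofactor of p53 in autophagy and cell death, stood at 18.2 and 19.4 CPM in WT DMSO, 404 and 439 CPM in WT Nutlin-3a, 49.6 and 51.9 CPM in KO DMSO and 282 and 279 CPM in KO Nutlin-3a. Its KO level was thus higher than WT before treatment and lower after it, and its difference of responses was -2.02 (SE 0.080, adjusted p = 1.16e-11). AEN, an apoptosis-enhancing nuclease, went the other way and was stronger in KO, with 111 and 111 CPM under DMSO and 209 and 210 CPM under Nutlin-3a in WT against 92.1 and 94.2, then 244 and 235 CPM in KO (difference 0.45, adjusted p = 3.47e-05). Of the 18 regulators listed, 10 were called (55.6%, against 27.3% of all tested genes), 8 more negative and 2 more positive (13.3% and 13.9% of all tested genes). The second positive member was the nuclear exporter XPO1, whose fall was weaker (-0.52 in WT, -0.26 in KO).

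The arrest, apoptosis, repair and remaining lists of direct p53 targets together held 147 tested genes, and 92 were called (62.6%, against 27.3% of all tested genes). Of these 82 were more negative in KO and 10 more positive. The classes were 77 weaker rises, 4 weaker falls, 5 lost rises, 5 stronger rises and 1 newly gained rise. The median response was 1.75 in WT and 1.22 in KO, and the median difference -0.40, against -0.01 over all tested genes. The median level difference of KO minus WT was -0.07 under DMSO and -0.50 under Nutlin-3a. The spread within the lists was wide, from targets that rose alike in the genotypes to targets that lost the response.

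Among the 18 arrest genes 10 were called (55.6%, against 27.3% of all), 9 more negative and 1 more positive. CDKN1A, which encodes p21, was at 71.9 and 73.0 CPM in WT DMSO, 3124 and 2945 CPM in WT Nutlin-3a, 48.6 and 48.1 CPM in KO DMSO and 1705 and 1655 CPM in KO Nutlin-3a. It was lower in KO under either treatment, and the fold rise was nearly the same, 41.9-fold in WT and 34.8-fold in KO. The difference of responses of -0.27 (SE 0.071) had an adjusted p of 0.00886. The edgeR call did not hold without WT DMSO replicate 1 (adjusted p = 0.0575), KO DMSO replicate 1 (0.0618) or KO Nutlin-3a replicate 2 (0.0535). BTG2, an antiproliferative adaptor of mRNA deadenylation, changed far more. Its levels were 15.4 and 14.9 CPM in WT DMSO, 373 and 362 CPM in WT Nutlin-3a, 57.7 and 62.7 CPM in KO DMSO and 299 and 252 CPM in KO Nutlin-3a. It rose 24.2-fold in WT and 4.57-fold in KO (difference -2.41, SE 0.11, adjusted p = 5.47e-09), and the DMSO level differed between the genotypes by 1.99 against -0.42 under Nutlin-3a. GADD45A, which binds and inhibits cell cycle kinases, rose 6.19-fold in WT and 3.88-fold in KO (difference -0.67). The sestrin SESN1 (3.66 in WT, 2.79 in KO), the RNA-binding protein gene ZMAT3 (2.60 and 2.22) and the kinase gene PLK2 (1.17 and 0.74) were weaker as well on the log2 scale. In CPM, however, PLK2 rose more in KO (146 against 126 CPM in WT). Its mean level was 100 CPM in WT DMSO, 226 CPM in WT Nutlin-3a, 217 CPM in KO DMSO and 363 CPM in KO Nutlin-3a.

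Apoptosis targets were divided. Of 26 tested, 14 were called (53.8%, against 27.3% of all), 11 more negative and 3 more positive in KO. TP53I3, a quinone oxidoreductase linked to oxidative stress, was at 34.3 and 33.8 CPM in WT DMSO and at 905 and 881 CPM in WT Nutlin-3a. In KO it was at 65.2 and 61.2 CPM and then at 419 and 427 CPM. It rose 26.2-fold in WT and 6.69-fold in KO, with a difference of -1.97 (SE 0.071, adjusted p = 8.97e-12). APAF1, the core of the apoptosome, had like DMSO levels (28.7 and 27.1 CPM in WT, 26.8 and 30.0 CPM in KO) and rose to 101 and 118 CPM in WT but 49.0 and 51.2 CPM in KO (difference -1.15, adjusted p = 7.95e-07). PIDD1, a scaffold of the caspase-2 platform, kept 74.2% of its WT response. BAX and BBC3, which act in the mitochondrial pathway, were not called. BAX rose 3.07-fold in WT and 3.11-fold in KO (difference 0.02, SE 0.081, adjusted p = 0.881), and BBC3 7.65-fold and 8.54-fold (0.16, SE 0.11, adjusted p = 0.312). The death receptor TNFRSF10B rose more in KO (2.06 in WT, 2.41 in KO, difference 0.35), while FAS, at -0.14, was not called.

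**Figure D3:**
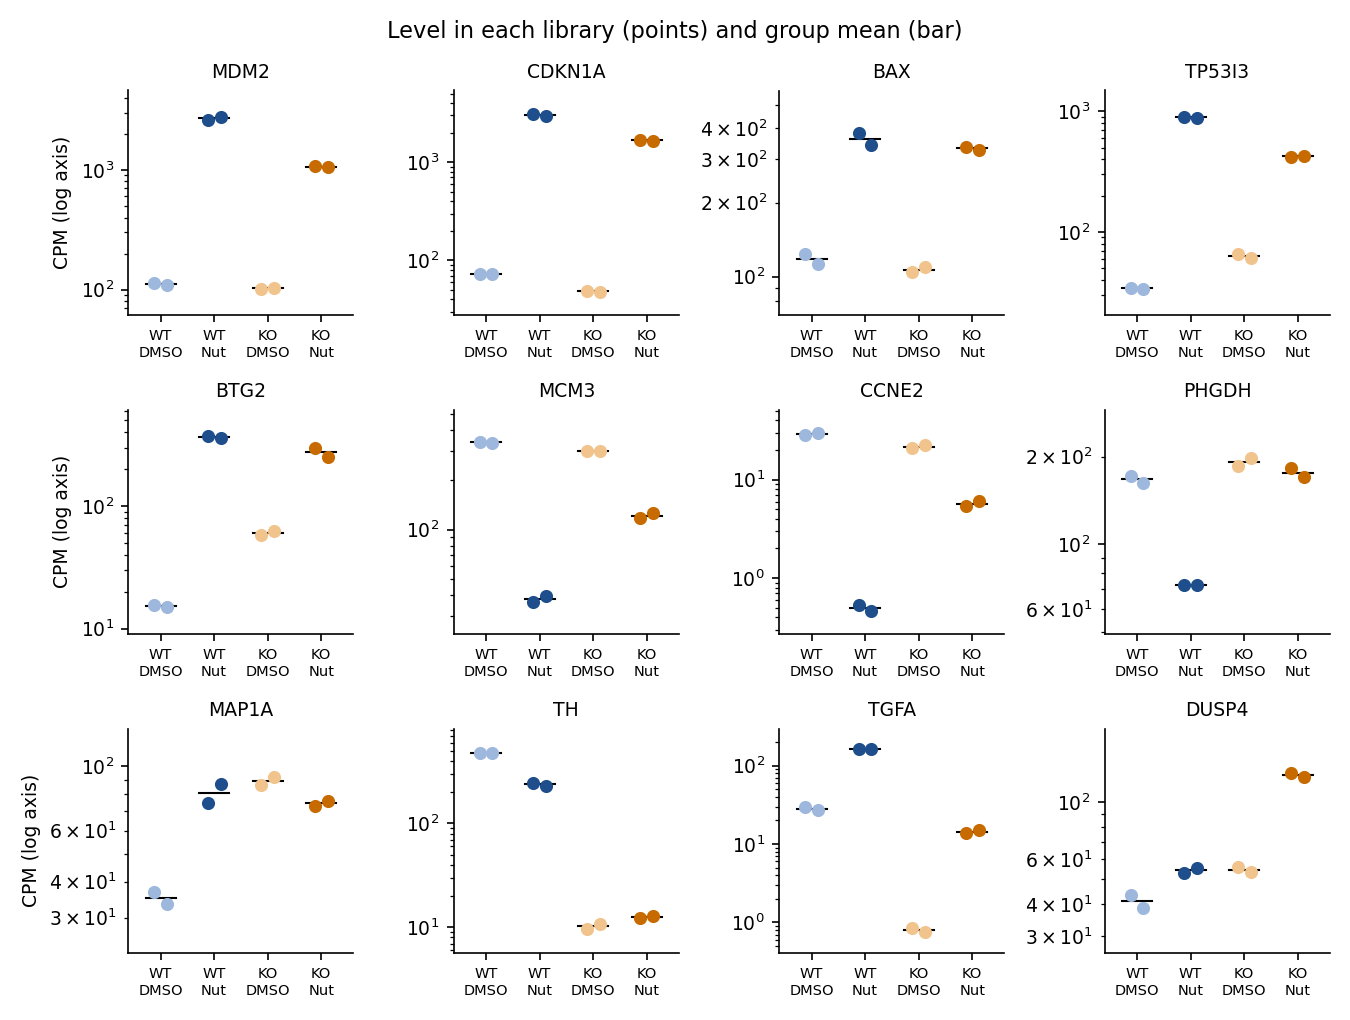
Level of 12 genes in each library, in CPM on a log axis that differs between panels; points are the 8 libraries and bars the group means. MDM2 and TP53I3 end lower in treated KO than in treated WT cells, BAX ends at about the same level, MCM3 and CCNE2 fall less in KO, PHGDH falls in WT and stays near its DMSO level in KO, and TH and TGFA start from far lower DMSO levels in KO.

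Repair and metabolic targets included a response that was lost. Of 33 tested, 20 were called (60.6%, against 27.3% of all), 17 more negative and 3 more positive. FUCA1, a lysosomal fucosidase, was at 6.41 and 6.15 CPM in WT DMSO, 24.95 and 22.69 CPM in WT Nutlin-3a, 4.98 and 5.62 CPM in KO DMSO and 5.71 and 5.81 CPM in KO Nutlin-3a. It rose 3.79-fold in WT, while its KO response of 0.12 (SE 0.12, adjusted p = 0.485) was not called, and the difference was -1.81 (adjusted p = 2.43e-07). RRM2B, the p53-induced subunit of ribonucleotide reductase, rose from 39.9 and 38.8 to 333 and 343 CPM in WT. In KO it rose from 31.9 and 31.5 to 136 and 131 CPM, so that 67% of the log2 response was kept (difference -1.02, adjusted p = 9.81e-09). The stress cytokine GDF15 (5.56 in WT, 4.89 in KO), the translesion polymerase POLH (2.18 and 1.58) and the AMPK subunits PRKAB1 (1.46 and 0.80) and PRKAB2 (1.56 and 0.75) were weaker. DDB2, a DNA damage sensor, was stronger (2.29 and 2.53, difference 0.25, adjusted p = 0.032).

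Of the remaining 70 direct targets, 48 were called (68.6%, against 27.3% of all), 45 more negative and 3 more positive. PLTP, a phospholipid transfer protein, rose by 3.94 in WT and 2.81 in KO (difference -1.13). STAT3, a transcription factor of cytokine signalling, was at 156 and 162 CPM in WT DMSO and 300 and 289 CPM in KO DMSO, yet at 446 and 476 CPM in WT Nutlin-3a and 424 and 425 CPM in KO Nutlin-3a. Its smaller KO response (0.53 against 1.54, difference -1.01, adjusted p = 8.68e-09) thus came with a DMSO difference of 0.89 and a treated difference of -0.12. NUPR1, a stress-induced chromatin protein, had the same form, with 24 and 16 reads in WT DMSO and 256 and 274 in KO DMSO. It rose 59.3-fold in WT and 7.69-fold in KO (difference -2.95), but by 39.9 CPM in WT and 47.7 CPM in KO. TGFA, a ligand of the EGF receptor, was the reverse case. It was at 29.6 and 27.2 CPM in WT DMSO, 162 and 163 CPM in WT Nutlin-3a, 0.839 and 0.751 CPM in KO DMSO and 13.7 and 15.0 CPM in KO Nutlin-3a. The rise was 5.71-fold in WT and 18.0-fold in KO (difference 1.66, adjusted p = 8.63e-07), yet 134 CPM in WT and 13.6 CPM in KO, and the difference turned to -0.44 on the log2(RPKM + 1) scale.

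Replication genes had the highest share of called differences among the lists examined. Of 60 tested G1/S and DNA replication genes, 57 were called (95%) and all 57 were more positive in KO, against 13.9% of all tested genes. The classes were 55 weaker falls, 1 newly gained rise (LIG1, a DNA ligase) and 1 opposite response (TYMS, thymidylate synthase, -0.29 in WT and 0.16 in KO). PCNA (0.19), E2F8 (0.94) and GINS4 (-0.08) were not called. The median response was -2.36 in WT and -1.24 in KO. The median level difference of KO minus WT was -0.19 under DMSO and 0.69 under Nutlin-3a.

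MCM3, a subunit of the replicative helicase, was at 342 and 333 CPM in WT DMSO, 36.5 and 39.7 CPM in WT Nutlin-3a, 299 and 300 CPM in KO DMSO and 117 and 125 CPM in KO Nutlin-3a. The DMSO levels were close and the treated levels lay more than 3-fold apart. The responses of -3.15 in WT and -1.31 in KO differed by 1.84 (SE 0.073, adjusted p = 1.16e-11). The helicase subunits MCM2 (difference 1.72) and MCM4 (1.58) and the uracil glycosylase UNG (1.80) had like values. CCNE2, the cyclin that drives entry into S phase, went from 28.7 and 30.0 CPM to 0.527 and 0.468 CPM in WT, which was 16 and 13 reads. In KO it went from 20.9 and 22.5 CPM to 5.38 and 6.02 CPM, or 199 and 200 reads. Its responses of -5.87 and -1.93 differed by 3.94 (SE 0.21, adjusted p = 6.22e-10), the largest value among the 57 called members. WDR76, a replication-linked WD-repeat gene outside the list, fell from 61.9 and 59.5 to 3.03 and 3.42 CPM in WT and from 70.2 and 69.0 to 25.8 and 25.3 CPM in KO (difference 2.79, adjusted p = 1.16e-11). E2F1 itself, the activator of this programme, fell by 3.78 in WT and 1.97 in KO, and the proliferation factor MYB, outside the list, by 4.49 and 1.98, a difference of 2.51. E2F2 was also weaker on the count scale (2.18), but its difference was -0.48 on log2(RPKM + 1), with 4.34 and 4.22 CPM in WT DMSO against 15.1 and 14.5 CPM in KO DMSO.

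Genes of G2 and mitosis followed with smaller differences. Of 68 tested, 60 were called (88.2%, against 27.3% of all tested genes), and all 60 were weaker falls (7.85% of all tested genes). The median response was -1.53 in WT and -0.88 in KO. CCNA2, cyclin A, went from 167 and 175 to 39.7 and 40.2 CPM in WT and from 146 and 149 to 70.8 and 72.0 CPM in KO (difference 1.05, SE 0.068, adjusted p = 6.52e-09). AURKB, a kinase of chromosome segregation, went from 105 and 111 to 19.7 and 17.1 CPM in WT and from 81.3 and 81.7 to 35.31 and 38.02 CPM in KO (difference 1.39, adjusted p = 7.68e-09). The mitotic transcription factor FOXM1 (0.95) and the survivin gene BIRC5 (0.80) were among the members with the smallest p. The 8 members not called, KIF14, KIF15, ZWILCH, CDC25C, CENPI, PTTG1, CKS2 and BUB3, had values from 0.06 to 0.39. Histone genes were called for 8 of 23 (34.8%, near the 27.3% of all tested genes), 4 in each direction, with a median difference of -0.36. The libraries were made from poly(A) RNA, so these counts do not cover histone transcripts without a poly(A) tail. The variants H2AFX (-1.84 in WT, -0.93 in KO) and H2AFZ (-1.49 and -0.83) were weaker falls, HIST3H2A a weaker rise (1.61 and 0.49) and HIST2H2BE a lost rise (1.19 and 0.01).

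The promoters of these groups are shown because E2F and CHR elements are the known routes of their repression. RefSeq promoters (GRCh38.p14) were searched over the 250 bases before the start site, on both strands, for the E2F letters TTTCCCGC, TTTCGCGC, TTTGCCGC and TTTGGCGC and for the CHR letters TTTGAA and TTCGAA. E2F letters were found in 17 of 47 G1/S genes with a promoter entry (36.2%) and in 4 of 56 G2/M genes (7.14%), against 2.79% of all 27305 promoters and 4.16% of those of tested genes. CHR letters were found in 32 of 56 G2/M genes (57.1%) and 2 of 47 G1/S genes (4.26%), against 14.6% of all and 9.93% of tested genes. Over all weaker falls the shares were 6.74% for E2F and 13.6% for CHR. Among genes that fell at least 2-fold in WT, E2F letters stood in 9.95% of 412 promoters where the fall was weaker in KO and in 6.55% of 168 where the difference was not called, and CHR letters in 17.5% and 10.7%. A match is a description of letters, not of a bound site. The 3 members of each list with the smallest p that held a match, leaving out one chromosome, are printed as examples, 5′ to 3′ on the gene's strand. Capitals mark matches to E2F letters in the G1/S genes and to CHR letters in the G2/M genes. Matches to the other element stay in lower case, such as E2F letters in CDCA5 and CHR letters in MCM6. E2F matches are shown in the promoters of MCM3 (chr6:52284743-52284992, minus strand), E2F1 (chr20:33686386-33686635, minus strand) and MCM6 (chr2:135876444-135876693, minus strand).
MCM3: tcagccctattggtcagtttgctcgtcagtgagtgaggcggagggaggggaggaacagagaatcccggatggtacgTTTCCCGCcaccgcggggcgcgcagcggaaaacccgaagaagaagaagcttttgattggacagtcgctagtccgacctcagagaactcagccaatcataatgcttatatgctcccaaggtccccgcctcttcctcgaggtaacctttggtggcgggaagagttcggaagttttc
E2F1: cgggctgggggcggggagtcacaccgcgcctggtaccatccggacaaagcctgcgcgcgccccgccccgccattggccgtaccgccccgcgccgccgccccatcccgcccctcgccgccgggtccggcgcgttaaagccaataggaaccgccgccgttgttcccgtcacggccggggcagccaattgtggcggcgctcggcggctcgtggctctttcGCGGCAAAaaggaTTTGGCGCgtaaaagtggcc
MCM6: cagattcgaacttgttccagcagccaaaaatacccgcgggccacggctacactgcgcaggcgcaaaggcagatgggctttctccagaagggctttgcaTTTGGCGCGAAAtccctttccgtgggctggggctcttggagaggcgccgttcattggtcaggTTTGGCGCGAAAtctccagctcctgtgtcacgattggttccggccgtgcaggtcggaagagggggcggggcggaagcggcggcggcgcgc
CHR matches are shown in the promoters of CDCA5, a cohesion factor (chr11:65084041-65084290, minus strand), NCAPG, a condensin subunit (chr4:17810729-17810978, plus strand), and PLK1, a mitotic kinase (chr16:23678639-23678888, plus strand).
CDCA5: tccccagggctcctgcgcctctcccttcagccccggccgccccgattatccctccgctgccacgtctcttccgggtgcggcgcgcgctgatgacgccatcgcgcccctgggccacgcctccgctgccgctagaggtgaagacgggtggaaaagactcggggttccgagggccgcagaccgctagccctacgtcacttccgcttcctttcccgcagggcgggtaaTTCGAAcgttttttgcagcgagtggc
NCAPG: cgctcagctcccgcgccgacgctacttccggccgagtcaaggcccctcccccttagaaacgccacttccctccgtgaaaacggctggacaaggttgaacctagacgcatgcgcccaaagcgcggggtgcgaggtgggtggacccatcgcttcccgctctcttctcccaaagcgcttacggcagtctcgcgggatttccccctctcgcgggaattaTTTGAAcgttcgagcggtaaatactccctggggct
PLK1: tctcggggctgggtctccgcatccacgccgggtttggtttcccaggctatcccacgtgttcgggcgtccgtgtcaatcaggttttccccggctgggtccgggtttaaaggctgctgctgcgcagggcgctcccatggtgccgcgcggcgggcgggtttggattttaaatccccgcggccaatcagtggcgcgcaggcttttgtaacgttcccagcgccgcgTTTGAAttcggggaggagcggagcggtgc
The E2F match of MCM3 begins 174 bases before its start site, while the CHR matches lie at -26 in CDCA5, -35 in NCAPG and -29 in PLK1. MCM6 carries overlapping matches on opposite strands at each of its sites. The differences of responses of these genes were 1.84 for MCM3, 1.81 for E2F1, 1.68 for MCM6, 0.92 for CDCA5, 0.89 for NCAPG and 0.87 for PLK1.

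**Figure D4:**
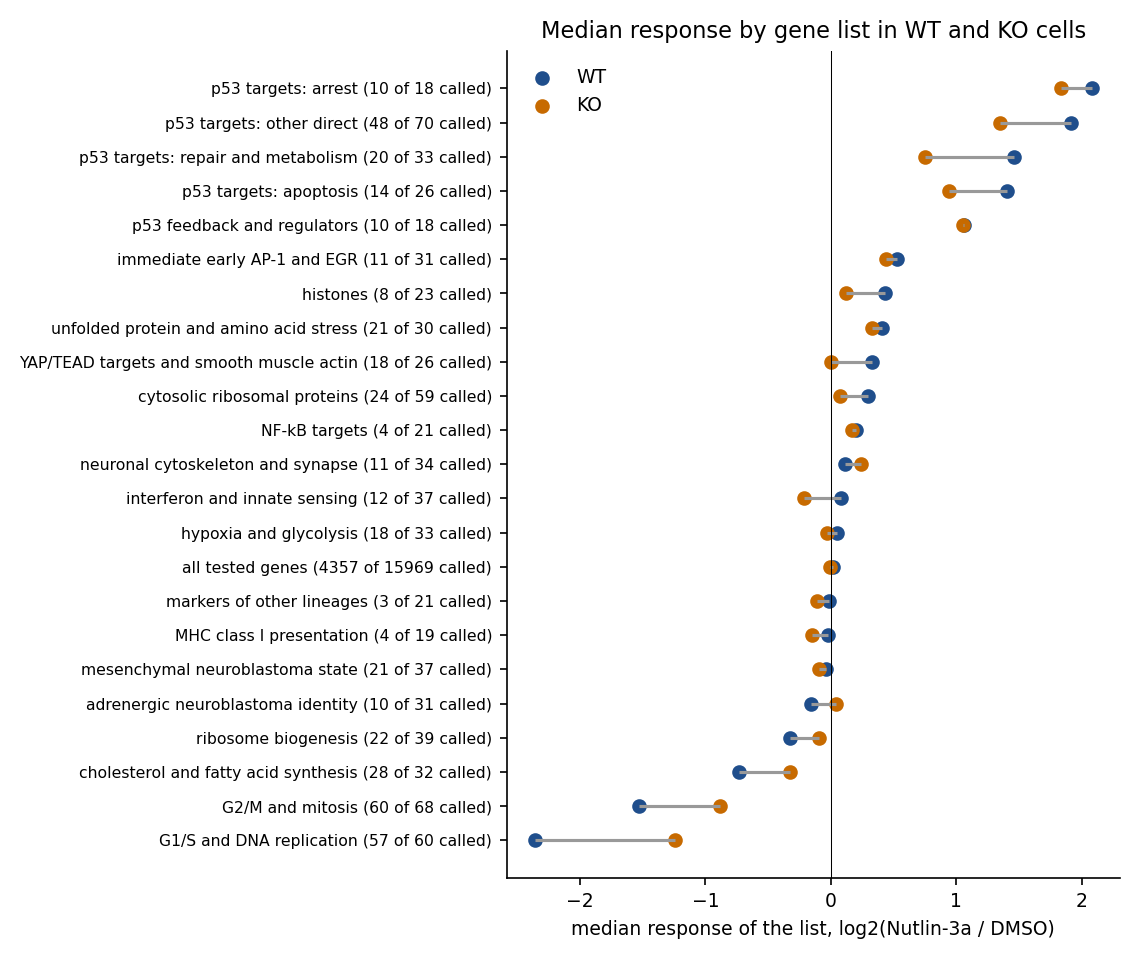
Median log2 response of each gene list in WT (blue) and KO (orange) cells, with the number of called differences in brackets; list medians have no error bar, and the cleavage-stage list is left out since several of its groups had 0 reads. The KO median lies closer to 0 than the WT median for the p53 target, replication, mitosis, ribosome biogenesis and lipid synthesis lists.

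Genes of growth and ribosome production were also called. MYCN, the amplified driver of many neuroblastomas, was at 3385 and 3351 CPM in WT DMSO, 2108 and 2014 CPM in WT Nutlin-3a, 2436 and 2468 CPM in KO DMSO and 1997 and 1900 CPM in KO Nutlin-3a. The treated levels of the genotypes were close, and the smaller KO fall (-0.33 against -0.71, difference 0.38, SE 0.067, adjusted p = 0.000376) started from a lower DMSO level. Of 39 ribosome biogenesis genes, 22 were called (56.4%, against 27.3% of all tested genes) and all 22 were more positive, as 12 weaker and 10 lost falls. NOP56, a core protein of box C/D particles, fell by 0.79 in WT and 0.28 in KO, and MYBBP1A, a nucleolar protein, had a lost fall (-0.41 and 0.05). Cytosolic ribosomal protein genes moved the other way. Of 59, 24 were called (40.7%, against the same 27.3%), all more negative, as 6 weaker and 18 lost rises. RPL13A rose 1.61-fold in WT and 1.11-fold in KO (difference -0.54, adjusted p = 1.15e-05), and was sorted as weaker in 4 of the 8 fits that left out a library. Ribosomal protein genes have many near-identical pseudogenes, so their counts are uncertain.

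Lipid synthesis genes, the targets of SREBP transcription factors, were called for 28 of 32 members (87.5%, against 27.3% of all tested genes), with 25 more positive and 3 more negative. There were 18 weaker and 6 lost falls, and the median response was -0.73 in WT and -0.32 in KO. HMGCS1, an early enzyme of the mevalonate pathway, was at 294 and 296 CPM in WT DMSO, 115 and 114 CPM in WT Nutlin-3a, 131 and 128 CPM in KO DMSO and 90.6 and 92.6 CPM in KO Nutlin-3a. KO cells were thus lower in both conditions, by 1.19 under DMSO and by 0.32 under Nutlin-3a on the log2 scale, and the difference of responses was 0.87 (SE 0.062, adjusted p = 1.68e-08). INSIG1, which retains the SREBP escort in the endoplasmic reticulum, fell by 1.76 in WT and 0.67 in KO. The sterol reductase DHCR7 (0.80) and the desaturase SCD (0.66) were weaker, and SREBF1 itself (-0.47 and 0.03) and FASN (-0.27 and 0.11) lost their falls. TM7SF2, a sterol reductase that rose in WT (1.28 and 0.70), was 1 of the 3 more negative members. The median KO minus WT level of the list was -0.71 under DMSO and -0.32 under Nutlin-3a.

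Of 30 genes of the unfolded protein and amino acid stress responses, 21 were called (70%, against 27.3% of all tested genes), 9 more positive and 12 more negative (13.9% and 13.3% of all). The list held 3 lost rises, all of them chaperones of the endoplasmic reticulum. CALR, calreticulin, went from 892 and 902 to 1254 and 1193 CPM in WT and from 891 and 844 to 866 and 916 CPM in KO (difference -0.41, adjusted p = 0.000245), and HSPA5 (0.59 and 0.03) and HSP90B1 (0.36 and -0.08) had the same form. The more positive members named next were chosen after their values were seen, and the median KO minus WT level of the whole list was 0.04 under Nutlin-3a. PHGDH, the entry enzyme of serine synthesis, was at 172 and 163 CPM in WT DMSO, 72.8 and 72.6 CPM in WT Nutlin-3a, 186 and 197 CPM in KO DMSO and 182 and 170 CPM in KO Nutlin-3a. Its WT response was -1.20 and its KO response -0.12 (adjusted p = 0.0608), a difference of 1.08 (SE 0.072, adjusted p = 8.38e-09). It was sorted as lost in 5 of the 8 fits that left out a library, with the difference called in all 8. The transporter SLC7A5, which imports leucine, went from 115 and 115 to 100.2 and 105 CPM in WT and from 127 and 125 to 174 and 167 CPM in KO, an opposite response (difference 0.61, adjusted p = 2.11e-06). PSAT1 (-0.19 and 0.30) and MTHFD2 (-0.34 and 0.22) were also opposite, and ASNS (0.12 and 0.57), TRIB3 (0.15 and 0.60) and SLC3A2 (0.04 and 0.35) gained a rise. ATF4, the transcription factor that controls this group, was not called at 0.14.

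Targets of YAP and TEAD and genes of smooth muscle actin were called for 18 of 26 members (69.2%, against 27.3% of all tested genes), with 16 more negative and 2 more positive (13.3% and 13.9% of all). Their median response was 0.33 in WT and 0.00 in KO. CTGF, a secreted matricellular protein, was at 61.2 and 64.7 CPM in WT DMSO, 163 and 157 CPM in WT Nutlin-3a, 52.5 and 49.4 CPM in KO DMSO and 56.6 and 66.5 CPM in KO Nutlin-3a. The KO libraries of either treatment lay between 49.4 and 66.5 CPM, far below treated WT. CTGF was sorted as weaker in 6 of the 8 fits that left out a library, with the difference called in all 8. The difference of responses was -1.07 (SE 0.094, adjusted p = 3.57e-07). CYR61, of the same family, rose 2.65-fold in WT and 1.27-fold in KO (difference -1.07). The scaffolds AJUBA (1.05 and 0.21) and AMOTL2 (1.07 and 0.16) were weaker, and MYOF (0.72 and -0.18) was lost. ACTA2, smooth muscle actin, rose 20.1-fold in WT and 3.88-fold in KO (difference -2.37, adjusted p = 6.22e-10). Its treated levels were alike, 76.2 and 66.3 CPM in WT and 69.9 and 68.4 CPM in KO, while its DMSO levels were 3.78 and 3.30 CPM in WT and 18.3 and 17.4 CPM in KO. TAGLN (-0.07 and -0.52) gained a fall and TPM1 (-0.14 and -0.44) fell more in KO.

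Interferon and innate sensing genes were called for 12 of 37 members (32.4%, near the 27.3% of all tested genes). All 12 were more negative, a direction called for 13.3% of all tested genes. STAT2, a subunit of the interferon-activated complex, rose 2.40-fold in WT and 1.24-fold in KO (difference -0.96, adjusted p = 2.64e-07). The DNA sensor IFI16 was at 143 and 138 CPM in WT DMSO, 224 and 217 CPM in WT Nutlin-3a, 278 and 263 CPM in KO DMSO and 264 and 279 CPM in KO Nutlin-3a, a lost rise from a KO level already above treated WT (difference -0.65, adjusted p = 1.50e-06). TLR3, a sensor of double-stranded RNA, rose 2.88-fold in WT and 1.29-fold in KO, with its class kept in 4 of those 8 fits. IRF1, a transcription factor of interferon signalling, was opposite (0.29 and -0.31). Its mean levels already differed under DMSO, with 111.6 CPM in WT and 26.17 CPM in KO. With Nutlin-3a they were 136 CPM in WT and 21.15 CPM in KO. For antigen presentation and NF-kB the counts were below the background, 4 of 19 (21.1%) and 4 of 21 (19%). Of 31 immediate early genes, 11 were called (35.5%, near the 27.3% of all). EGR2 (5.76 and 2.00) and EGR1 (2.52 and 1.33) were weaker, while DUSP4 (0.40 and 1.22) was stronger. FOSL1, an AP-1 subunit, was also stronger on the log2 scale (1.13 and 2.25). It went from 47.2 and 52.6 to 116 and 102 CPM in WT and from 8.92 and 6.81 to 38.7 and 36.1 CPM in KO, so that the rise in CPM was larger in WT (58.9 against 29.5).

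Of 31 adrenergic identity genes, 10 were called (32.3%, near the 27.3% of all tested genes), 9 more positive and 1 more negative. Of these, 4 were opposite responses. Over all tested genes, 13.9% were more positive, 13.3% more negative and 0.802% opposite. TH, the rate-limiting enzyme of catecholamine synthesis, was at 477 and 481 CPM in WT DMSO, 245 and 229 CPM in WT Nutlin-3a, 9.71 and 10.9 CPM in KO DMSO and 12.3 and 12.9 CPM in KO Nutlin-3a. It fell by 1.02 in WT and rose by 0.29 in KO (adjusted p = 0.00615), a difference of 1.31 (SE 0.092, adjusted p = 1.40e-08) with a KO minus WT level of -5.54 under DMSO and -4.23 under Nutlin-3a on the log2 scale. The sorting as opposite held in 6 of the 8 fits that left out a library. SCG2, a granin of secretory vesicles, fell from 200.9 and 206.6 to 170 and 160 CPM in WT and rose from 80.6 and 68.7 to 94.9 and 92.0 CPM in KO (difference 0.63). RET, a receptor tyrosine kinase, had a lost fall (-0.35 and 0.10). The transcription factors of the list were divided. HAND2 (0.02) and GATA3 (0.16) were not called. PHOX2A had a weaker fall (-0.70 in WT, -0.27 in KO), ISL1 a lost fall (-0.81 and -0.29), and TBX2 was opposite (-0.14 and 0.19). Among 37 mesenchymal genes 21 were called (56.8%, against 27.3% of all), 7 more positive and 14 more negative, with SOX9 (1.12 and 0.44) weaker and NOTCH3 (0.65 and 0.05) lost. Mean treated levels in WT and KO were close for SOX9 (112.7 and 119.4 CPM) and NOTCH3 (115.2 and 116.2 CPM). Under DMSO both were higher in KO, with 51.9 and 88.2 CPM for SOX9 and 73.3 and 112.4 CPM for NOTCH3. Of the neuronal genes 11 of 34 were called (32.4%, near the 27.3% of all), 8 more positive and 3 more negative. The neuropeptide gene GAL went from 186 and 186 to 119 and 97.7 CPM in WT and from 490 and 479 to 539 and 516 CPM in KO, a lost fall (difference 0.90, adjusted p = 5.66e-06), and the vesicle fusion gene SNAP25 lost its fall too (-1.37 and -0.02). Markers of other lineages were called for 3 of 21 (14.3%, under the background). LUM fell more in KO on the log2 scale, KRT18 fell in KO alone and KRT8 was opposite. In CPM the fall of LUM was larger in WT (-68.7 against -56.1 in KO). Its mean DMSO level was 372 CPM in WT and 133 CPM in KO.

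Hypoxia and glycolysis genes were called for 18 of 33 (54.5%, against 27.3% of all tested genes), with 8 more positive and 10 more negative. SLC2A1, the main glucose transporter, was at 29.2 and 29.9 CPM in WT DMSO, 57.1 and 56.2 CPM in WT Nutlin-3a, 13.9 and 12.6 CPM in KO DMSO and 12.65 and 14.02 CPM in KO Nutlin-3a. It rose 1.92-fold in WT and 1.01-fold in KO, a lost response (difference -0.93, SE 0.11, adjusted p = 4.40e-06). The fall of hexokinase HK2 was lost as well (-0.67 and -0.03), and NDRG1 rose less (1.75 and 0.46). The angiogenic factor VEGFA gained a rise in KO (0.09 and 0.58).

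Stronger and newly gained responses were few and often started from unequal levels. DUSP4, a phosphatase of MAP kinases, had DMSO levels of 43.6 and 38.5 CPM in WT and 55.6 and 53.4 CPM in KO. With Nutlin-3a it was at 53.02 and 55.25 CPM in WT and 130 and 125 CPM in KO, a difference of 0.83 (SE 0.084, adjusted p = 9.92e-07) that held on both scales. NEFL, a neurofilament subunit, rose 4.01-fold in WT and 7.24-fold in KO (difference 0.85), but by 92.5 CPM in WT and 28.8 CPM in KO. ICOSLG, an immune costimulatory ligand, rose 1.78-fold in WT from 32.0 and 26.0 CPM and 11.4-fold in KO from 0.476 and 0.311 CPM, and limma on log2(RPKM + 1) did not call it (adjusted p = 0.242). Among stronger falls, TRERF1, a zinc finger regulator, went from 41.5 and 39.4 to 30.6 and 33.2 CPM in WT and from 25.2 and 27.2 to 14.6 and 14.7 CPM in KO (difference -0.49, adjusted p = 0.00143). LINGO1, a transmembrane protein of neurons, gained a rise. It was at 18.5 and 17.7 CPM in WT DMSO, 16.9 and 17.5 CPM in WT Nutlin-3a, 2.85 and 3.81 CPM in KO DMSO and 10.6 and 10.0 CPM in KO Nutlin-3a. The KO rise of 3.08-fold brought it closer to, but not up to, the WT level (difference 1.70, SE 0.16, adjusted p = 5.04e-07). FOXL2, a forkhead factor, was also sorted as a gained rise, but on 3 reads with DMSO and 18 with Nutlin-3a (6.35-fold, 95% counting interval 1.85 to 33.7), against 3588 and 3858 reads in WT, and the call did not hold without KO DMSO replicate 1 (edgeR adjusted p = 0.0637). Gained falls included ERAP2, a peptide-trimming aminopeptidase, which changed by -0.03 in WT and fell from 165 and 168 to 129 and 136 CPM in KO (difference -0.30, adjusted p = 0.00213). SPSB1, an adaptor of ubiquitin ligases, fell from 14.9 and 14.3 to 9.76 and 10.4 CPM in KO with 7.11 and 6.82, then 8.80 and 7.78 CPM in WT (difference -0.79).

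Opposite responses brought the genotypes together or apart. MAP1A, a microtubule-associated protein, rose from 36.9 and 33.4 to 74.5 and 87.3 CPM in WT and fell from 86.1 and 91.8 to 73.1 and 75.9 CPM in KO (difference -1.46, SE 0.10, adjusted p = 4.50e-08), so that the treated levels overlapped. SLC2A12, a sugar transporter, rose from 9.77 and 8.82 to 19.6 and 21.8 CPM in WT and fell from 7.05 and 7.25 to 5.95 and 5.14 CPM in KO (difference -1.52, adjusted p = 1.65e-06), so that the treated levels moved apart. SIRPA, the receptor of the CD47 signal, fell from 4.97 and 5.66 to 3.07 and 3.31 CPM in WT and rose from 8.36 and 10.8 to 15.6 and 15.8 CPM in KO (difference 1.44, adjusted p = 3.17e-05). The difference was called in all 8 fits without 1 library for 117 of the 128 opposite genes (91.4%), but only 18 (14.1%) were sorted as opposite in all 8.

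Of 19 tested cleavage-stage genes, which are normally read in the early embryo, 9 were called (47.4%, against 27.3% of all) and all 9 were more negative. These 9 had 0 or 3 reads in WT DMSO, and the sizes of their fitted differences depend on the prior count, so reads are given. The tripartite motif gene TRIM49 had 0 reads with DMSO and 149 with Nutlin-3a in WT, at least 50.3-fold higher when 3 reads per group are taken as the floor. In KO it went from 28 to 198 reads (7.49-fold, 95% counting interval 5.02 to 11.6). MBD3L2 rose from 0 to 290 reads in WT, at least 97.9-fold, and from 20 to 392 in KO (20.8-fold, 13.3 to 34.4). RFPL4B rose from 3 to 972 reads in WT (328-fold, 112 to 1590) and from 46 to 2241 in KO (51.6-fold, 38.5 to 70.7). For RFPL4B, TRIM43 and TRIM43B the difference turned positive on the log2(RPKM + 1) scale, and MBD3L2 and TRIM49 were not called there (limma adjusted p = 0.279 and 0.479). The edgeR call of TRIM43 did not hold without WT DMSO replicate 1 (adjusted p = 0.0931), WT DMSO replicate 2 (0.0864) or KO DMSO replicate 2 (0.0668). Members of these families are near-identical copies, so their counts are uncertain. Outside the list, the sperm channel subunit CATSPERD went from 0 to 1252 reads in WT (at least 423-fold) and from 12 to 1408 in KO (124-fold, 70.9 to 241). Its call did not hold without the same 3 libraries in turn (edgeR adjusted p = 0.0542 to 0.0849), nor with limma on log2(RPKM + 1) (adjusted p = 0.573). The reticulon RTN1 rose from 0 to 38 reads in WT (at least 12.8-fold) and went from 385 to 472 in KO (1.3-fold, 1.13 to 1.49). NUDT10, a diphosphohydrolase, rose from 0 to 38 reads in WT (at least 12.8-fold) and went from 517 to 619 in KO (1.27-fold, 1.13 to 1.43). On log2(RPKM + 1) the difference of RTN1 was 0.03 and that of NUDT10 -0.088, neither called by limma (adjusted p = 0.876 and 0.612), and the rise of RTN1 in CPM was larger in KO (1.58 against 0.661).

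Stability differed by class. Of the 4357 called genes, 2470 (56.7%) were called with the same sign in all 8 fits that left out a library, and 1861 (42.7%) also kept their class. The share called in all 8 was 67.9% for weaker, 46.1% for lost, 32.2% for stronger and 30.1% for newly gained responses. Among genes named above, BTG2, TP53I3, TP53INP1, MDM2, MCM3, CCNE2, CCNA2, AURKB, HMGCS1, FUCA1, DUSP4 and LINGO1 kept call and class in all 8.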

How the data were processed

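Poly(A) RNA of 8 CHP212 libraries was analysed, grouped by the sample titles, with table columns matched by name. TruSeq libraries that keep the strand were made from TRI reagent extracts, per the labels' protocols. The submitters' processing notes list GRCh37 (hg19) and the tools HTSeq 0.8.0, Picard 2.9.4, SAMtools 1.5, Bowtie2 2.2.9.0, TopHat2 2.1.1, FastQC 0.11.5 and bcl2fastq. Which annotation was counted, and whether by strand, is not stated there, so overlapping or near-identical genes can share reads. The authors deposited a table of unscaled counts for 25369 genes, and a second table of RPKM values (counts scaled to gene length and depth), which served for alternatives only.

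Genes with at least 10 reads in at least 2 libraries were tested. edgeR 4.0.16 in R 4.3.3 fitted 4 group means with TMM scaling, leaving 4 residual degrees of freedom (common biological coefficient of variation 0.0425). The robust quasi-likelihood F test, two-sided, gave adjusted p values (Benjamini-Hochberg over the 15969 tested genes, threshold 0.05), and standard errors were taken from the F statistic. Log2 values are the fitted ones and intervals are at 95%. Counting intervals and the floor of 3 reads cover counting error only. Replicates differed by more than counting noise (chi-square per gene of 2.38 to 9.22), so every library counted separately, and p values measure the spread between them.

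Named genes are MDM2, CDKN1A, BAX, BBC3, MDM4, MYCN and FAM193A, up to 6 called genes of each class and direction with the largest difference (mean log2 CPM of at least 1, replicate differences of KO and WT apart, no clone-like symbol), and up to 4 called members of each of 23 lists with the smallest p. Further list members were named after their values were seen. The members, rule and lists were chosen with earlier results of these data known. The 23 lists held 835 entries, all matched, 2 through another symbol, and lists are described by counts and medians, with no set test. The fits were tested on simulated data. Alternatives were other scaling factors and filters, DESeq2 1.42.0, limma 3.58.1 on log2 RPKM, a replicate block, other thresholds, each library left out, the 3 libraries with unshared genes left out and, added after seeing the data, genes with a group of at most 3 reads left out. Promoters were taken from RefSeq (GRCh38.p14), matched by symbol.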

Additional observations from a re-analysis of the deposited data

Results flagged for a closer look

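The results here were flagged because the effect of the same drug differed between the genotypes by a test of the difference itself. At an adjusted p under 0.05, 4357 genes had a different response, and among the genes always reported these included MDM2 (-1.23), CDKN1A (-0.269), MDM4 (-0.226) and MYCN (0.377), all on the log2 scale. The MDM2 and MYCN calls held in all 8 fits that left out a library, the CDKN1A call in 5 and the MDM4 call in 3. BAX, BBC3 and FAM193A, reported by the same rule, were not called.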

How the results depend on the processing

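With 2 libraries per group the precision is limited by their number, and depth limits the genes with a group at or near 0 reads. All settings kept more smaller than larger KO responses among the classes counted. At a threshold of 0.01, 2736 genes were called, 1425 more positive and 1311 more negative, with 1409 weaker, 1115 lost, 24 stronger, 106 newly gained and 51 opposite. Tested against 1.5-fold, 393 genes were called. DESeq2's Wald test gave 36 stronger, 150 newly gained and 80 opposite responses. Requiring single responses of 1.5-fold left 738 weaker, 26 stronger and 67 newly gained. Limma on log2(RPKM + 0.1) without a filter gave 1312 more negative, 30 stronger and 74 opposite. Without the 3 libraries together there were 96 stronger, 413 newly gained and 293 opposite. Without 1 library, the counts ran from 3100 to 5327 in all, 1622 to 2562 more positive, 1478 to 2765 more negative, 1440 to 2679 weaker, 1180 to 1869 lost, 26 to 75 stronger, 114 to 368 newly gained and 64 to 266 opposite. With the replicate number as a block 4349 genes were called; same-numbered libraries did not deviate together (correlations of -0.0618 to 0.0774), so the numbers were not taken as pairs. On log2(RPKM + 1), 8 named genes changed sign: E2F2 (-0.48), FOXL2 (-0.016), LAPTM5 (-1.08), RFPL4B (0.57), RTN1 (0.032), TGFA (-0.44), TRIM43 (0.70) and TRIM43B (0.44). For the named genes, 2532 comparisons with an alternative kept the call, and also the direction where the gene was called. A further 155 lost the call. A call was gained only by BAX and FAM193A, in the fit without the 3 libraries. There 3 groups have 1 library and are assumed to vary like KO DMSO. That fit gave differences of 0.19 for BAX and 0.30 for FAM193A. The cause was not tested.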
